A study of Mus musculus with 8 samples.

Results

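The trefoil factor genes Tff1, Tff2 and Tff3 were followed in mouse liver. They are 3 of the 18193 genes that the array annotation names, each has 1 probe set, and they were picked by symbol with the high level of Tff3 in POMCMfn2KO liver already known. Whole-liver RNA was hybridised to GeneChip arrays from 5 POMCMfn2KO mice and 3 Control mice, 1 array per mouse, all aged 6 weeks. In POMCMfn2KO mice the hypothalamic POMC neurons lack Mfn2, a mitochondrial fusion gene, so the liver itself was not the tissue targeted. The Control mice are labelled WT, and whether they carried a Cre transgene or floxed alleles is not stated. Both groups had a mixed C57Bl/6J, FVB/N and 129 background and ate chow freely. The promoter behind the deletion, the sex of the mice and the time of collection are not given.

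Trefoil factors are small secreted peptides whose trefoil domain is held together by disulphide bonds. Mucous epithelia release them together with mucins, where they protect and help to repair the epithelial surface. Tff1 is made mainly by surface mucous cells of the stomach, Tff2 by gastric neck cells and duodenal glands, and Tff3 by goblet cells of the intestine, while in human liver TFF3 is known from bile duct epithelium. In mouse, forced expression of Tff3 in liver has been described to lower transcripts of gluconeogenic enzymes, which is why G6pc and Pck1 were set beside it. Hspa5, the endoplasmic reticulum chaperone BiP, was added as a marker of the stress that the title of the series names.

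All levels are log2 values, a difference is a difference of log2 levels, and errors are SDs with n = 5 POMCMfn2KO and n = 3 Control arrays unless stated. Array medians were 5.79 to 5.81. A probe set was called dim, and its gene not tested, where its mean over the 8 arrays fell short of 5.80, which is the middle value among probe sets that are not controls. The hepatocyte gene Alb was at 15.25 ± 0.01 in POMCMfn2KO and 15.26 ± 0.02 in Control liver. POMCMfn2KO arrays 2 and 3 stood apart in pancreatic acinar transcripts, and values without these arrays follow for the trefoil genes and for the genes that passed the test. Transcript levels in whole liver cannot tell fewer cells of a type from less RNA per cell.

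Tff3, the goblet cell member, was far higher in POMCMfn2KO liver. Its level was 10.42, 9.9997, 11.41, 8.55 and 9.46 in POMCMfn2KO arrays 1 to 5, against 7.21, 6.79 and 6.38 in Control arrays 1 to 3. All POMCMfn2KO arrays lay above all Control arrays, with array 3 highest and array 4 lowest among the mutants. The means were 9.97 ± 1.07 in POMCMfn2KO and 6.79 ± 0.42 in Control liver, a difference of 3.17 or 9.02-fold. The lowest mutant array still exceeded the highest Control array by 1.34, or 2.53-fold. This contrast led to the choice of the gene, so it is a description with no test. In 12% of the 11986 genes tested, all POMCMfn2KO arrays lay above all Control arrays. Without POMCMfn2KO arrays 2 and 3 the difference in Tff3 was 2.68.

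Tff2, the gastric neck cell member first isolated from pancreas in the pig, did not separate the groups. It was at 6.36, 6.95, 7.30, 6.45 and 6.35 in POMCMfn2KO arrays 1 to 5, against 6.49, 6.32 and 6.32 in Control arrays 1 to 3. Arrays 2 and 3 of the mutants were high, and the other 3 lay within the Control range. The difference of the means was 0.31, and without arrays 2 and 3 it was 0.01.

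Tff1, the gastric surface member, was nearly level across the study. It was at 8.32, 8.50, 8.15, 8.47 and 8.32 in POMCMfn2KO arrays, against 8.47, 8.52 and 8.42 in Control arrays. The groups overlapped, and the mean difference of -0.12 was smaller than the SD of 0.14 among the mutant arrays. Thus 1 of the 3 genes had mutant values wholly above the Control values, as did 12% of all genes tested. That gene was Tff3, which was picked with its high level known. All 3 genes passed the filter on dim probe sets, and no array put any of them below 5.80. That level is the middle of all probe sets and no call of detection, so passing it does not show expression.

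**Figure D1:**
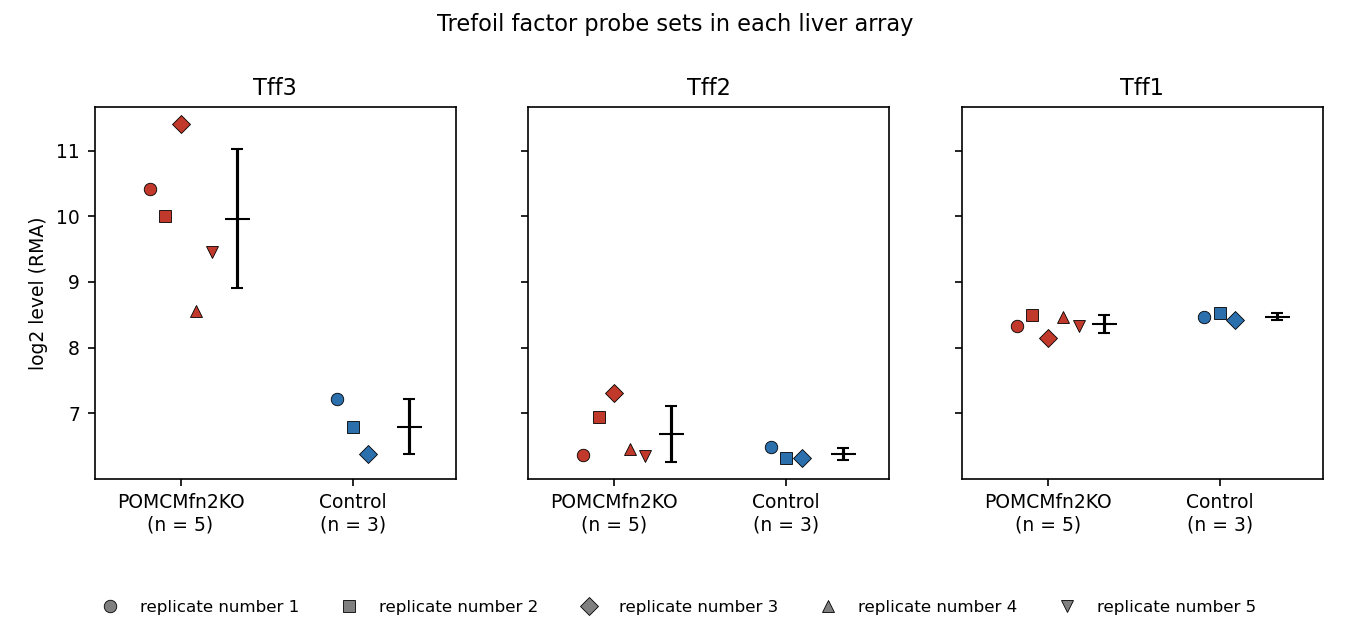
Log2 levels (vertical axis) of Tff3, Tff2 and Tff1 in each array, with POMCMfn2KO left of Control, symbols for replicate numbers, and the mean with its SD beside the points. Levels can be compared within a panel and not between genes. Tff3 lies between 8.55 and 11.41 in the mutants and between 6.38 and 7.21 in the Controls, Tff2 is high in mutant arrays 2 and 3, and Tff1 overlaps between the groups.

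Tff3 also varied more from mouse to mouse than nearly every other gene, a property that does not depend on the group means. Among the POMCMfn2KO arrays it spanned 2.86, or 7.24-fold, and 48 of the 11986 genes tested had a larger SD there. Among the Control arrays it spanned 0.83, or 1.78-fold, and 4 genes had a larger SD. The median SD over all genes tested was 0.13 in POMCMfn2KO and 0.07 in Control liver. For Tff2 the SD was 0.43 in POMCMfn2KO and 0.10 in Control liver, with 452 and 3508 genes above it. For Tff1 it was 0.14 in POMCMfn2KO and 0.05 in Control liver, with 5808 and 7964 genes above it. Without POMCMfn2KO arrays 2 and 3 the mutant SD was 0.93 for Tff3, 0.06 for Tff2 and 0.08 for Tff1 (n = 3), with 91, 10505 and 9311 genes above them. The large mutant spread of Tff2 was therefore that of arrays 2 and 3, while the spread of Tff3 was high in both groups and without those arrays.

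The glucose genes and the chaperone rose in the mutants. G6pc, which encodes the liver glucose-6-phosphatase, was at 13.12, 13.43, 13.23, 12.78 and 13.05 in POMCMfn2KO arrays 1 to 5, against 12.51, 12.54 and 12.52 in Control arrays. Pck1, the cytosolic phosphoenolpyruvate carboxykinase, was at 14.06, 13.90, 14.00, 13.82 and 14.04 in POMCMfn2KO arrays, against 13.62, 13.67 and 13.53 in Control arrays. Hspa5 was at 13.64, 13.84, 13.99, 13.51 and 13.98 in POMCMfn2KO arrays, against 12.96, 12.87 and 12.94 in Control arrays. Mutant array 4 was the lowest mutant array in the probe set used for each of these genes and for Tff3. In a further probe set of Pck1 and of Hspa5 array 1 was lowest instead, at 11.65 and 9.63, with array 4 at 12.16 and 9.72. In the limma fit over 11986 genes the differences were 0.60 ± 0.13 for G6pc (SE, adjusted p = 0.0128), 0.36 ± 0.07 for Pck1 (adjusted p = 0.0129) and 0.87 ± 0.11 for Hspa5 (adjusted p = 0.00191). Without POMCMfn2KO 2 and 3 the difference was 0.46 for G6pc (limma adjusted p = 0.0497) and 0.79 for Hspa5 (adjusted p = 0.0198). Probe sets of a gene disagreed in size: further ones above the filter gave 1.09 and 0.10 for Hspa5 and 0.62 for Pck1, and in the Hspa5 probe set at 0.10 and the Pck1 probe set at 0.62 the groups overlapped. These genes too were named with their differences known. In this fit 18% of all genes passed, 7.02% higher and 10.9% lower. G6pc did not pass without Control 1, 2 or 3 (adjusted p up to 0.0598), nor Pck1 without Control 1 or 3 or without POMCMfn2KO 2 and 3 together (up to 0.0668).

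Whether Tff3 tracked these genes from mouse to mouse was asked within the groups, since both groups form clusters in Tff3 and a correlation over pooled levels would repeat the group difference. Each level was replaced by its deviation from the mean of its own group, and deviations were permuted within groups, giving 720 exact arrangements, 2-sided. Over the 8 arrays Pearson's r with Tff3 was 0.65 for G6pc (exact permutation p = 0.172), 0.58 for Pck1 (p = 0.235) and 0.57 for Hspa5 (p = 0.307). After Benjamini-Hochberg adjustment over the 3 genes each exact permutation p was 0.307. Spearman's rho was 0.67 for G6pc (exact permutation p = 0.192), 0.43 for Pck1 (p = 0.379) and 0.36 for Hspa5 (p = 0.461), each 0.461 after adjustment. No relation passed, and with 8 arrays a moderate one could be missed.

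The positive values rested on mutant array 4, whose deviation from its group mean was -1.42 in Tff3. Its deviation was -0.35 in G6pc, -0.14 in Pck1 and -0.28 in Hspa5. Without it r was 0.18 for G6pc, 0.16 for Pck1 and 0.09 for Hspa5. Without the arrays farthest from the median of Tff3, mutant 3 and Control 3, r was 0.73 for G6pc, 0.62 for Pck1 and 0.35 for Hspa5. Without mutant arrays 2 and 3 r was 0.84 for G6pc, 0.84 for Pck1 and 0.25 for Hspa5. A further Pck1 probe set above the filter gave r of -0.13, so the direction for Pck1 depended on the probe set.

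**Figure D2:**
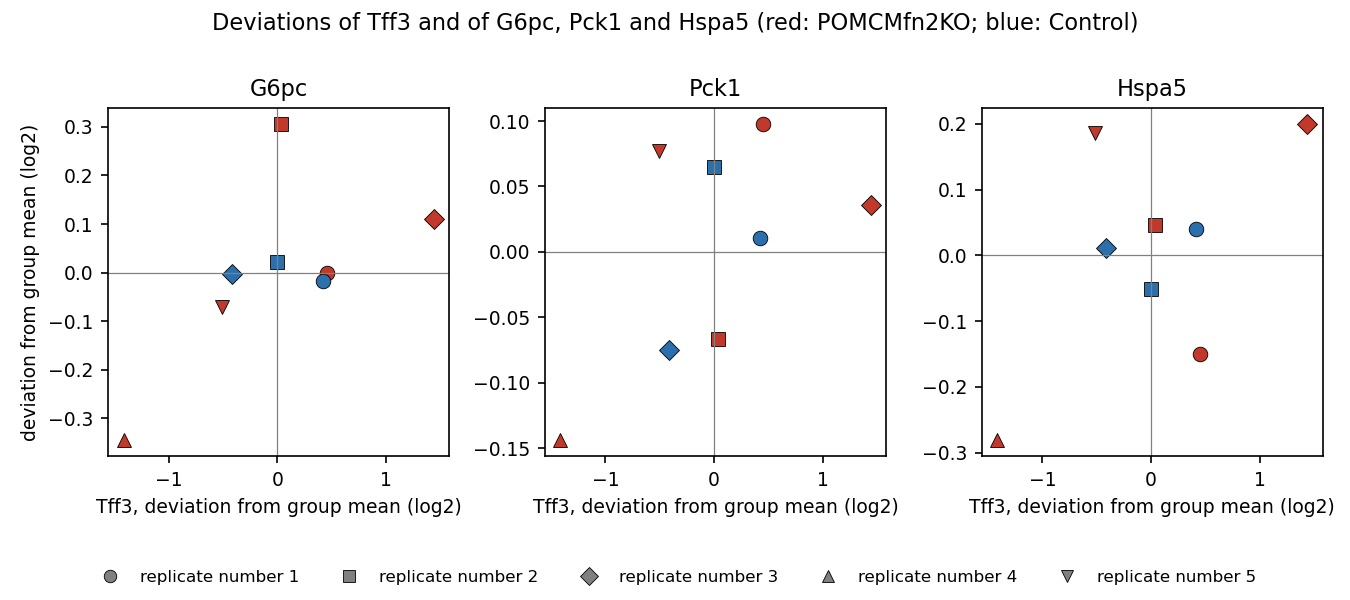
Deviation of Tff3 from its group mean (horizontal axis, log2) against that of G6pc, Pck1 and Hspa5 (vertical axis, log2) in each array, red for POMCMfn2KO and blue for Control. Mutant array 4 sits in the lower left corner of every panel, at -1.42 for Tff3. With array 4 left out and the mutant mean taken again without it, r was 0.09 to 0.18. The points drawn use the mean of all mutants.

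The same measure was used to name the genes whose mouse-to-mouse pattern was most like that of Tff3, as a description over 8 arrays with no test. Of the 11985 other genes, 31 had r above 0.9 and 34 had r below -0.9. How many unrelated genes would reach such values over 8 arrays was not computed. The counts therefore do not show that any of these genes tracks Tff3. The 10 highest were Gtdc1 (0.99), C9orf72 (0.97), Tmem268 (0.96), Snrnp70 (0.95), Rrm2b (0.95), Rpl19 (0.95), Atp5o (0.94), Tra2a (0.94), Nol11 (0.94) and Nudcd1 (0.93). Gtdc1 was at 7.55, 7.47, 7.80, 7.20 and 7.40 in POMCMfn2KO arrays, against 7.38, 7.33 and 7.25 in Control arrays, the same order of arrays as Tff3 within each group. Among these 10 none passed the test between groups, the lowest adjusted p being 0.0527 for C9orf72. At an unadjusted p under 0.05, C9orf72, Tra2a and Nudcd1 were higher in POMCMfn2KO liver. How many of all genes reach that threshold was not counted, so this does not set the correlates apart. The 5 lowest were Donson (-0.97), Cacna1a (-0.95), Wdr54 (-0.95), Tmem144 (-0.94) and Gpr19 (-0.94). Tmem144, a membrane protein gene, was at 6.03 ± 0.23 in POMCMfn2KO and 6.66 ± 0.04 in Control liver and fell by 0.63 (adjusted p = 0.00975), and by 0.57 without POMCMfn2KO 2 and 3 (adjusted p = 0.0443). Without these arrays the 10 highest had r of 0.88 to 0.99 and the 5 lowest had r of -0.95 to -0.91 over 6 arrays. The genes had been picked on all 8 arrays, these 6 included, so values far from 0 were largely fixed by that choice. Of the family itself, Tff2 had r of 0.69 with Tff3, but r of -0.08 without POMCMfn2KO 2 and 3. Tff1 had r of -0.68 with Tff3, and r of -0.57 without them.

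Pancreatic acinar transcripts were high in mutant arrays 2 and 3, where Tff2 was high as well. The mean log2 level of the 21 acinar markers with a probe set was 5.91, 9.25, 9.50, 5.98 and 5.77 in POMCMfn2KO arrays 1 to 5, against 5.78, 5.81 and 5.80 in Control arrays. Their summed linear level ranged from 1739 to 27859 in POMCMfn2KO and from 1710 to 1754 in Control arrays. Cpb1, a pancreatic carboxypeptidase, was at 11.69 and 11.68 in mutant arrays 2 and 3, at 5.03 to 5.34 in the other mutants and at 4.47 to 4.98 in Controls. Of 17 tested markers none passed in limma, at an adjusted or at an unadjusted p under 0.05. Of all genes 7.02% rose and 10.9% fell at the adjusted threshold. The median difference of these markers was 1.75 against -0.02 over all genes tested. Some passed the filter on dim probe sets only through arrays 2 and 3, such as Cpb1 and Reg1 with Control means of 4.79 and 4.76. The filter thus favoured a positive median. Mutant arrays 1, 4 and 5, whose mean acinar levels were near those of the Controls, had Tff3 at 10.42, 8.55 and 9.46, all above the Controls. Their summed acinar levels were 1899, 2515 and 1739. The sums in arrays 1 and 4 thus exceeded every Control, while that in array 5 lay within the Control range. Cela1 was at 9.06, 10.16 and 8.98 in arrays 1, 4 and 5, against 8.84 to 8.91 in Controls. Prss2, at 7.55, 7.51 and 7.28 in these arrays, was not above the Controls at 7.49 to 7.59. Over the 8 arrays the deviations of the acinar mean had r of 0.95 with those of Tff2, 0.62 with those of Tff3 and -0.21 with those of Tff1. The part of these transcripts in the levels of Tff2 and Tff3 was not tested.

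**Figure D3:**
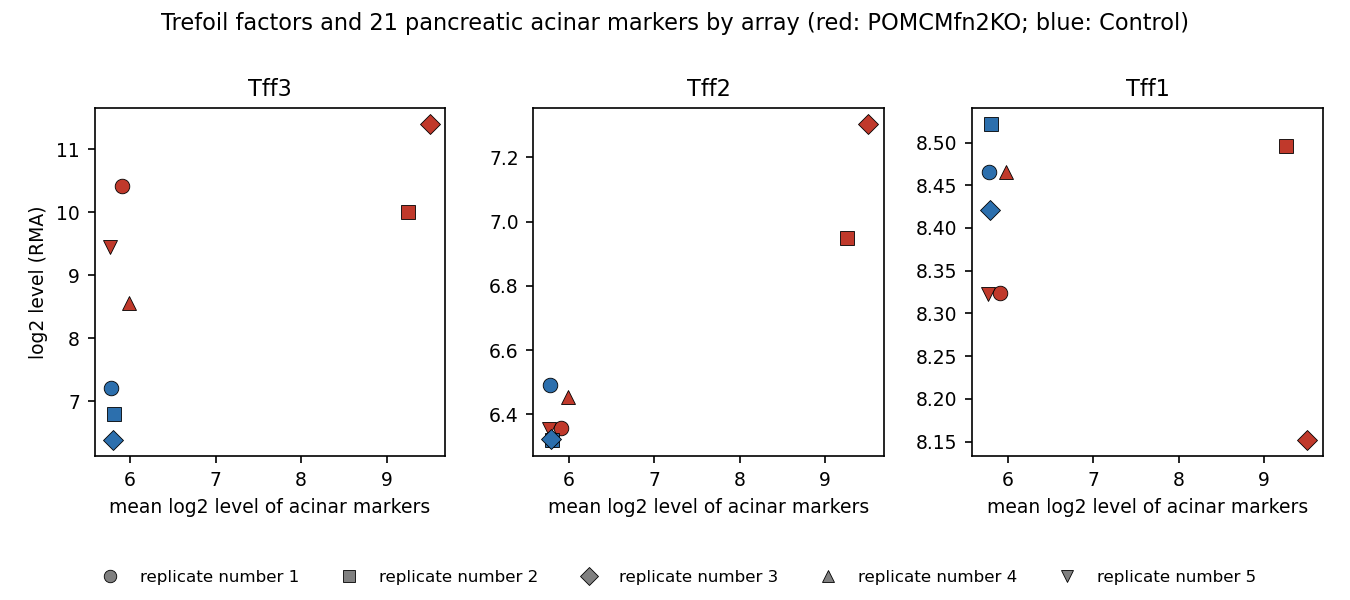
Log2 levels of Tff3, Tff2 and Tff1 (vertical axes) against the mean log2 level of 21 pancreatic acinar markers (horizontal axis) in each array, red for POMCMfn2KO and blue for Control. The mutant arrays at acinar levels of 9.25 and 9.50 have the highest Tff2, whereas Tff3 is above the Controls also in the mutants with acinar levels of 5.77 to 5.98.

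Markers of the epithelia that make trefoil factors are given beside the shares of all genes that were called, 7.02% higher and 10.9% lower. These shares are for the adjusted threshold. The larger share at an unadjusted p under 0.05 was not counted, so unadjusted counts of any list have no share beside them. Of 15 biliary epithelium markers with a probe set, 5 were dim, among them the duct keratin gene Krt7 and the chloride channel gene Cftr. Of the 10 tested, none rose and 1 fell, and at an unadjusted p under 0.05 limma had 1 higher and 1 lower, with a median difference of -0.08. Krt19, the other duct keratin gene, was at 5.95 ± 0.17 in POMCMfn2KO and 5.99 ± 0.22 in Control liver, and Epcam was at 5.96 ± 0.22 in POMCMfn2KO and 6.25 ± 0.34 in Control liver. The gene that fell was Anxa4, an annexin (-0.83 ± 0.18 SE, adjusted p = 0.0134), which did not pass without any single Control array or without POMCMfn2KO 2 and 3 (adjusted p up to 0.0617). Cdh1, the E-cadherin gene that hepatocytes also express, was at 10.42, 10.27, 10.38, 8.88 and 10.36 in POMCMfn2KO arrays, against 9.03, 9.08 and 8.94 in Control arrays. Mutant array 4 was again the low one, and Cdh1 did not pass (adjusted p = 0.0519). It did pass without that array (1.34, adjusted p = 1.43e-05), among genes at a mean level of at least 7 (adjusted p = 0.0465) and after quantile normalization (adjusted p = 0.0478), so that 1 biliary marker rose there. The summed linear level of the biliary markers ranged from 1979 to 2599 in POMCMfn2KO and from 2212 to 2320 in Control arrays.

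Of 17 intestinal and goblet cell markers, 9 were dim, including the goblet mucin gene Muc2 at 4.70 to 5.00 in POMCMfn2KO and 4.85 to 5.09 in Control arrays. Agr2, a goblet cell disulphide isomerase, was dim as well. Of the 8 tested, 1 rose and none fell, with 1 higher and 1 lower at an unadjusted p under 0.05 and a median difference of -0.06. That gene was Cdx2, an intestinal transcription factor, at 5.96 ± 0.11 in POMCMfn2KO and 5.69 ± 0.07 in Control liver (adjusted p = 0.0387). The Control level of Cdx2 was below the dim level, another of its probe sets was dim with a difference of 0.06, and the call was lost in 7 of the alternatives, including the fits without any single Control (adjusted p up to 0.177). The summed linear level of the intestinal list ranged from 3742 to 5668 in POMCMfn2KO and from 5342 to 5825 in Control arrays.

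Of 11 gastric markers with a probe set 5 were dim, and of the 6 tested none passed in limma, with 2 lower at an unadjusted p under 0.05 and a median difference of -0.04. Gkn1 and Gkn2, gastrokines that partner trefoil peptides in the stomach, differed by 0.01 and 0.00. The related gene Gkn3 (-0.21) fell without POMCMfn2KO 5 (-0.25, limma adjusted p = 0.0396). The summed linear level of the gastric list ranged from 635 to 668 in POMCMfn2KO and from 667 to 682 in Control arrays.

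Among 11 hepatocyte markers 1 rose, Cps1 of the urea cycle (0.31, adjusted p = 0.0264), and none fell, where 7.02% and 10.9% of all genes did. The Cps1 call was lost without any single Control, without POMCMfn2KO 3, and without POMCMfn2KO 2 and 3 (adjusted p up to 0.107). Fgb, a fibrinogen gene, fell in 4 alternatives, by 0.19 to 0.21 (adjusted p from 0.0339 to 0.0473), and Tat, a tyrosine-degrading enzyme gene, rose without POMCMfn2KO 1 or 4. Of 11 tested Kupffer cell and leukocyte markers 2 fell and none rose, with a median difference of -0.32, where 10.9% of all genes fell. They were the neutrophil gene S100a9 (-1.56, adjusted p = 1.27e-05) and the Kupffer cell receptor gene Timd4 (-0.69, adjusted p = 0.00405). Both passed without POMCMfn2KO 2 and 3 too, at -1.52 and -0.69. Without POMCMfn2KO 5, 5 of the markers fell, the further ones being Cd5l, Ptprc and Vsig4. Over all genes, lower calls ranged from 496 to 1642 across the fits without single arrays. The summed linear level of the Kupffer cell and leukocyte list ranged from 6905 to 11148 in POMCMfn2KO and from 9898 to 12176 in Control arrays. Its part in the level of Tff3 was not tested.

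Transcription factors that have been described to act on trefoil genes in other epithelia were set beside them. Of 13 tested, 3 rose and 2 fell, where 7.02% of all genes rose and 10.9% fell, with a median difference of 0.02 against -0.02 over all genes. Foxa1, a forkhead pioneer factor of liver and gut, was at 8.49, 9.88, 9.18, 8.58 and 9.09 in POMCMfn2KO arrays, against 7.86, 7.78 and 7.69 in Control arrays. The groups did not overlap, and Foxa1 rose 2.41-fold (1.27 ± 0.27 SE, adjusted p = 0.0144). Its relative Foxa3 was at 10.40, 10.46, 10.58, 10.11 and 10.34 in POMCMfn2KO arrays, against 9.95, 9.86 and 9.90 in Control arrays, and rose by 0.48 (adjusted p = 0.0120). Foxa2 did not pass, with a difference of -0.11 (adjusted p = 0.288). The third that rose was Cdx2, described above.

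Stat3, the transducer of cytokine signals that can induce TFF3 in gut epithelium, was at 9.61 ± 0.15 in POMCMfn2KO and 10.17 ± 0.12 in Control liver and fell by 0.56 (adjusted p = 0.00620). Its further probe sets gave -0.51 and -0.14 above the filter and -0.15 below it, and the mean of all Stat3 probe sets gave -0.34 (adjusted p = 0.00605). Pparg, a lipogenic nuclear receptor, was at 6.88 ± 0.28 in POMCMfn2KO and 7.93 ± 0.19 in Control liver and fell by 1.05 (adjusted p = 0.00324). Without POMCMfn2KO 2 and 3 the differences were -0.55 for Stat3 (adjusted p = 0.0367) and -0.95 for Pparg (adjusted p = 0.0335). Hnf4a, Gata4, Gata6, Klf4, Hif1a, Cebpb and Rela did not pass, with differences of -0.03 to 0.30. Spdef and Atoh1, regulators of goblet cell fate, were dim. Foxa1 did not pass without any single Control (adjusted p up to 0.0646), and Foxa3 did not pass without Control 2 or 3 or without POMCMfn2KO 2 and 3 (up to 0.0632). None of the list rose without Control 2 or 3, 1 rose without Control 1, and 1, Foxa1, rose without POMCMfn2KO 2 and 3 (0.94, adjusted p = 0.0224). Over all genes, higher calls also went from 842 to 325, 286 and 303 without Control 1, 2 and 3.

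Of the mucosal proteins that bind or accompany trefoil peptides and of their candidate receptors, 12 were tested, 1 rose and none fell, close to the 7.02% of all genes that rose, with a median difference of -0.01. The gene that rose was Egfr, the EGF receptor, whose pathway trefoil peptides are described to engage. It was at 12.05, 11.92, 11.82, 12.14 and 11.38 in POMCMfn2KO arrays, against 9.79, 9.80 and 9.75 in Control arrays (2.08 ± 0.15 SE, adjusted p = 9.22e-05). Without POMCMfn2KO 2 and 3 the difference was 2.08 as well (adjusted p = 0.00361). Other probe sets of Egfr above the filter gave differences of 0.04, 0.08, 1.18, 1.28 and 1.77. The receptor genes Cxcr4, Ackr3 and Lingo2 were dim, and Lingo3 differed by -0.03. Fcgbp, the mucus protein that pairs with TFF3, was at 6.57 ± 0.14 in POMCMfn2KO and 6.64 ± 0.05 in Control liver. Dmbt1, a mucosal scavenger protein that binds trefoil peptides, ranged from 5.64 to 8.48 in POMCMfn2KO and from 6.81 to 8.79 in Control arrays and overlapped. Zg16, also an acinar marker, was at 9.63 and 9.83 in mutant arrays 2 and 3 and between 5.86 and 6.21 in all others.

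**Figure D4:**
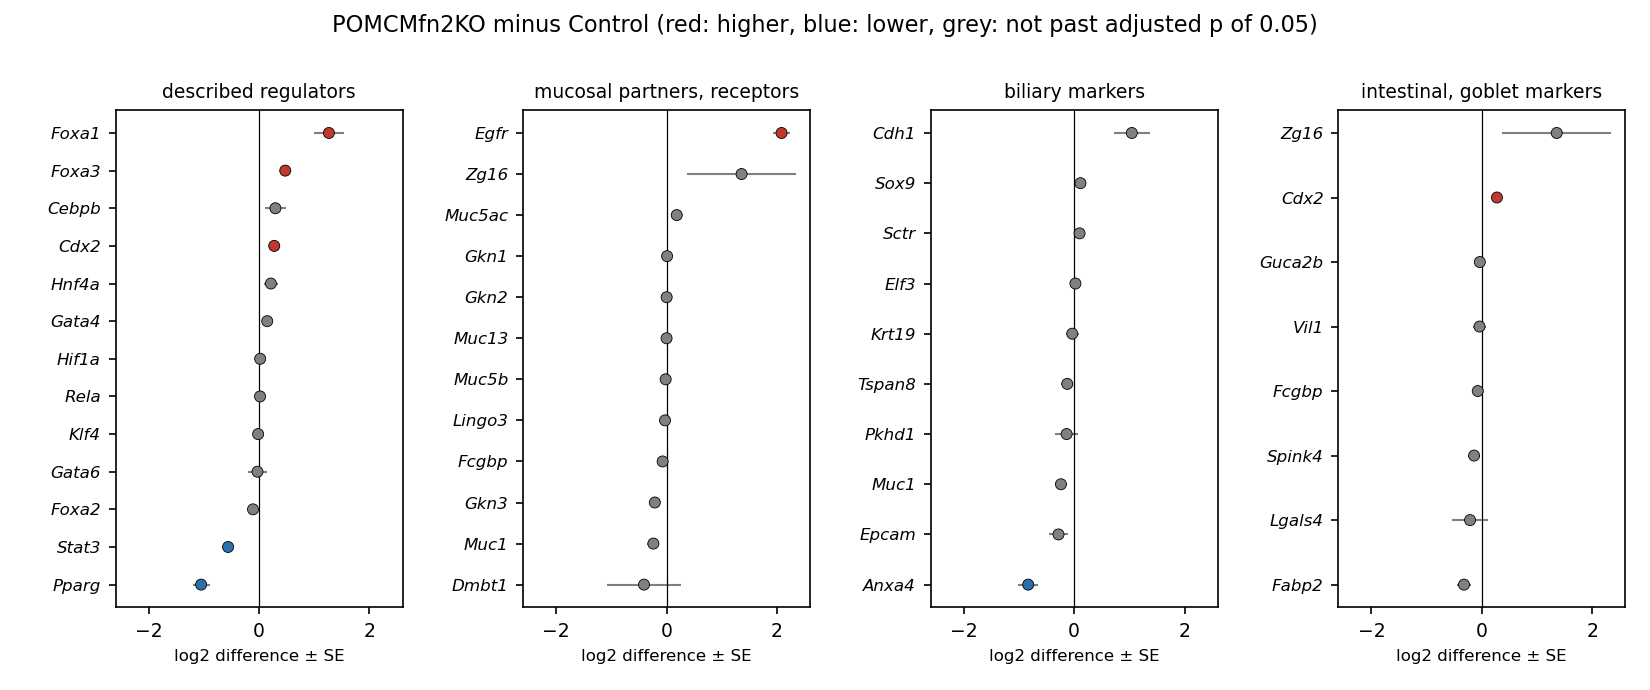
Log2 differences, POMCMfn2KO minus Control, with SE (horizontal axes) for the tested members of 4 gene lists, red where higher, blue where lower and grey where adjusted p was not under 0.05. Foxa1, Foxa3 and Egfr lie to the right and Stat3, Pparg and Anxa4 to the left, while most mucosal, biliary and goblet cell genes lie close to 0. Only 2 mucosal, 2 biliary and 2 intestinal genes had a mean level of at least 7. For the dimmer ones a difference near 0 says little.

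Trefoil peptides need disulphide bonds to fold, so enzymes that form them were examined. Of 17 tested, 8 were higher and 1 lower at an unadjusted limma p under 0.05, and the median difference was 0.24. The share of all genes at that unadjusted threshold was not counted, so these counts do not set the list apart. At the adjusted threshold 4 rose and none fell, where 7.02% of all genes rose and 10.9% fell. They were Creld2, a chaperone-like isomerase (1.77, adjusted p = 0.00304), Txndc11 (0.45, adjusted p = 0.00881), Pdia5 (0.31, adjusted p = 0.0261) and the peroxiredoxin gene Prdx4 (0.36, adjusted p = 0.0427). Pdia3 (0.25), Pdia4 (0.38), Pdia6 (0.28) and Ero1b (0.87) did not pass, nor did P4hb, the abundant isomerase, at -0.26. Ero1b was at 10.47, 11.57, 11.63, 10.35 and 11.91 in POMCMfn2KO arrays, against 10.32 in each Control array. Acinar transcripts were high in arrays 2 and 3, and without these arrays 1 gene, Creld2, rose (1.598, adjusted p = 0.0276). The count was 1 without Control 1, 2 without Control 2 or 3 or POMCMfn2KO 2 or 3, and 7 without POMCMfn2KO 1 or 4. Calls over all genes moved the same way. Those higher went from 842 to 325, 286 and 303 without Control 1, 2 and 3, and to 1118 and 1156 without POMCMfn2KO 1 and 4.

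The 3 trefoil genes lie next to each other on mouse chromosome 17, in the order Tff3, Tff2 and Tff1, between Abcg1 and Tmprss3 in the RefSeq annotation of GRCm38.p6. Of the 5 nearest protein-coding genes on each side, 5 were dim and 5 were tested. None passed in limma at an adjusted or at an unadjusted p under 0.05. Of all genes 7.02% rose and 10.9% fell at the adjusted threshold, so with 5 tested the count says little about the region. Without POMCMfn2KO 1, Pde9a, a cyclic GMP phosphodiesterase gene, fell by 0.29 (limma adjusted p = 0.0240), in a fit where 2760 of 11986 genes passed. Abcg1, the sterol transporter next to Tff3, was at 8.02 ± 0.12 in POMCMfn2KO and 7.90 ± 0.05 in Control liver, a difference of 0.12. Tmprss3, next to Tff1, was dim, as were Rsph1, Umodl1, Glp1r and Dnah8. Glo1, Ubash3a, Slc37a1 and Pde9a differed by -0.09, 0.01, -0.16 and -0.22.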

How the data were processed

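The authors deposited 1 log2 expression value for each probe set and array, made with RMA from the affy package, per the submitters' processing notes (versions not given in the sources used here). No value was transformed again. Precision depends on how many arrays there are, and limma p-values set a group difference against the variation between mice within groups. That variation was pooled over the groups, although the median SD was 0.13 in POMCMfn2KO and 0.07 in Control liver. Probe sets were named by GEO's platform annotation: of 45101, 64 were controls, 34945 had 1 symbol, 932 several and 9160 none. Per gene the probe set with the highest mean was kept, and the 11986 genes at or above 5.80 were fitted in R 4.3.3 by limma 3.58.1 (POMCMfn2KO minus Control, 2-sided, no trend, Benjamini-Hochberg, threshold 0.05). Figures were drawn with matplotlib 3.10.9.

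Members and lists were chosen with earlier results of these data known. Of 171 list entries, 152 matched a named probe set, and the others were not analysed here. Genes named were the trefoil genes, G6pc, Pck1 and Hspa5, the 10 highest and 5 lowest correlates, the list members that passed and the 4 with the lowest p in each list, and the neighbours. Any further list member named was picked with its values in view. The fit was tested on simulated data. Replicate numbers did not pair the arrays.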

Additional observations from a re-analysis of the deposited data

Results flagged for a closer look

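Of 58 genes checked, 3 had an array apart from the rest of the 5 POMCMfn2KO arrays by Dixon's ratio, where chance alone flags about 1 group in 20. Pparg was at 7.37 in POMCMfn2KO 4, against 6.71 to 6.82 in the other mutants. Cdh1 was at 8.88 in POMCMfn2KO 4, against 10.27 to 10.42 in the other mutants. Abcg1 was at 8.22 in POMCMfn2KO 5, against 7.92 to 7.9997 in the other mutants. No trefoil gene had such an array.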

How the results depend on the processing

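The difference in Tff3 kept its direction and moved by less than the SD between replicates in every alternative run. It was 3.17 with each array centred on its median, 3.18 after quantile normalization, 3.81 with the replicate block, and 2.81 to 3.53 when single arrays were left out. Tff2 ranged from 0.15 to 0.39 and Tff1 from -0.15 to -0.07 without single arrays. The genes passing the test numbered 2152, of which 842 were higher and 1310 lower. They ranged from 820 to 2760, with 286 to 1156 higher and 496 to 1642 lower, when single arrays were left out, the Control arrays giving 821, 820 and 863. Without POMCMfn2KO 2 and 3 together they numbered 640, with 239 higher and 401 lower. Fewer arrays enter these fits. The correlation of Tff3 with Pck1 was -0.13 on another Pck1 probe set, and the cause was not tested. Without single arrays r ranged from 0.18 to 0.91 for G6pc, 0.16 to 0.76 for Pck1 and 0.09 to 0.82 for Hspa5. Same-numbered arrays of both groups deviated with r of 0.04, 0.04 and -0.03 over genes, so they share only a number. With the replicate block 1891 genes passed, and of the genes named Prdx4 lost its call (adjusted p = 0.0709) while Cdh1, Epcam, Pnliprp2, Cd5l, Ptprc and Vsig4 gained one. Among genes at a mean level of at least 7, 1 leukocyte marker fell (Cd5l), and with no filter Prss3, Atp4a and S100a8 also passed. The spread and correlates of Tff3 without POMCMfn2KO 2 and 3 were added after seeing the data.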
